A study of Mus musculus with 12 samples.

Results

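The 60 genes described here encode the machinery of mitosis and cell division, from the cyclins that start mitosis to the ring that separates the daughter cells. They were listed by name for their role, with earlier results of these data known, and all 60 were found among the 55335 genes of the count table. They fell into 9 subgroups by role, namely mitotic entry (8 genes), mitotic kinases with the chromosomal passenger complex (6), spindle checkpoint with its target CDC20 (6), kinetochore (11), kinesins (10), spindle assembly (5), condensin (5), chromosome structure and cohesion (5) and cytokinesis (4).

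HSCs were sorted from mouse bone marrow and their polyadenylated RNA was sequenced in 12 libraries, 6 from Ythdc1Δ/Δ and 6 from Ythdc1+/+ mice of the C57B6 strain. YTHDC1 is a nuclear protein that reads the m6A mark on RNA. Ythdc1Δ/Δ mice were Ythdc1 fl/fl with the Mx1-Cre transgene, and Ythdc1+/+ mice carried the same transgene without floxed alleles. According to the methods, both received repeated injections of pIpC, an RNA mimic that induces interferon and thereby the Mx1 promoter, and donors were 8 weeks old. Mx1-Cre is known to act in blood cells of every lineage and in other interferon-responsive tissues, and where deletion took place in these mice was not measured here. The titles name 3 Ythdc1Δ/Δ samples (KO176, KO177, KO209) and 3 Ythdc1+/+ samples (WT178, WT180, WT207), each sequenced as 2 libraries, but do not say whether a sample is 1 mouse or a pool. The libraries of a sample were summed, and the spread behind every p-value is that among these samples, which may be technical. Summed samples held 45939230 to 46937648 counts in Ythdc1Δ/Δ and 42098649 to 48095239 counts in Ythdc1+/+ HSCs.

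Mitosis begins when CDK1, bound to its cyclins, phosphorylates its many substrates, after which chromosomes condense and attach to the spindle through their kinetochores. The spindle checkpoint holds back CDC20 and the anaphase-promoting complex until every chromosome is attached, and separase then cuts cohesin. Most of these genes are transcribed in G2 and M phase, their promoters often hold a CHR element together with CCAAT boxes, and most long-term HSCs are out of the cycle, so in sorted HSCs such transcripts mark the cells that are dividing.

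The letters around the start of a gene are where this periodic transcription is known to be set. Stretches before the start of 6 genes are shown to let the arrangement be seen. RefSeq entries (GRCm38.p6) were found for 51 of the 60 genes, giving 56 windows from 250 bases before to 50 after a start, since 4 genes had several starts. The first 5 stretches below are 120 bases long and belong to genes of 4 subgroups whose samples did not overlap between genotypes (Cdk1, the mitotic kinase; Cdc20, the activator of the anaphase-promoting complex; Kif11, the bipolar spindle motor; Espl1, which encodes separase; Top2a, which untangles DNA), and Nuf2, a kinetochore gene, is shown because neither element was found in its window. Capitals mark the CHR element (TTTGAA or TTCGAA, on either strand, so also TTCAAA) and the CCAAT box (CCAAT, or ATTGG where it lies on the other strand). All are written 5′ to 3′ on the strand of the gene.
Cdk1, chr10:69352913-69353032, minus strand: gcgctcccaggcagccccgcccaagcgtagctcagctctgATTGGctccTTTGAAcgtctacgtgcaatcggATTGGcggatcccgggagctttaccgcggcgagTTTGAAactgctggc
Cdc20, chr4:118437344-118437463, minus strand: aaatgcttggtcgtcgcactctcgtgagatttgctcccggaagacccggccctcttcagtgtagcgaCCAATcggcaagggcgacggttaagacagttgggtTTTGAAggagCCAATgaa
Kif11, chr19:37376262-37376381, plus strand: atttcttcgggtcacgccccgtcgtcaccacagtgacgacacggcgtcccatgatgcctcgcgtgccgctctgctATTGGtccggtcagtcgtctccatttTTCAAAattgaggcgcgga
Espl1, chr15:102296173-102296292, plus strand: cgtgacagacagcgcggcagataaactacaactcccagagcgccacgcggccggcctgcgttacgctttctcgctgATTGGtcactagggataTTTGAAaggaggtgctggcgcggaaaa
Top2a, chr11:99024190-99024309, minus strand: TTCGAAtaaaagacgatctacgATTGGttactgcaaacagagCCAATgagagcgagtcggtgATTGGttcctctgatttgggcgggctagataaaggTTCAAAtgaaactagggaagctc
Nuf2, chr1:169531465-169531584, minus strand: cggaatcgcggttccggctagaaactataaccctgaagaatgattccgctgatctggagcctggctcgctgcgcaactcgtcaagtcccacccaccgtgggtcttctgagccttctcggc

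Positions are counted from the RefSeq start. In Cdk1 the CHR elements began 71 and 15 bases before the start, and CCAAT boxes began 80 and 48 bases before it. In Espl1, the CCAAT box began 44 and the CHR 27 bases before the start, and in Kif11 they began 45 and 19 bases before it. The gene models behind the counts begin further upstream in Cdk1 (base 69352938), Cdc20 (118437352) and Espl1 (102296266). In these genes the marked element nearest the RefSeq start thus lies inside the gene as counted. Every stretch with marked elements belongs to a gene with a CHR before the start. In other genes the only CHR lay after it, where such stretches cannot show it. Examples are Ttk, Bub1 and Plk1, where it began at bases 8, 15 and 31 counted from the start. Over the full windows, a CHR element was present in 44 of the 56 mitosis gene promoters (78.6%), against 19.2% of 32851 RefSeq promoters of the same length. A CCAAT box was likewise present in 44 of 56, against 37.4% of all promoters, and 28 of 56 held 2 or more, against 11.7%. Both elements together occurred in 38 (67.9%), against 7.52%. The E2F element TTTGGCGC or TTTCGCGC, on either strand, was in 4 windows (7.14%), against 0.813% of all, and none of the searched words contains another. Matches describe letters and not bound sites. Among subgroups, CHR elements were found in 6 of 12 kinetochore windows, and in 6 of 6 for cytokinesis and 8 of 9 for kinesins. These are counts of windows, and windows of the same gene overlap or lie close together. Cenpk gave several of the kinetochore windows, all without a CHR. Ect2 and Prc1 each gave more than a single cytokinesis window, all with a CHR.

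The mitosis genes were higher on average in Ythdc1Δ/Δ than in Ythdc1+/+ HSCs, by a small amount and in each of the 9 subgroups, and no single gene passed the test. The log2 fold change (Ythdc1Δ/Δ minus Ythdc1+/+) was above 0 in 59 of the 60 genes, against 48.9% of the 18234 genes tested. Its median was 0.26, a fold of 1.2, with a range of -0.01 to 0.49, against a median of -0.0062 over all genes tested. Adjusted p-values from edgeR's quasi-likelihood test ran between 0.194 and 0.993, so 0 of 60 genes passed an adjusted p of 0.05 in either direction, where 0.0877% of all genes tested were called higher and 0.0494% were called lower. DESeq2 on the same samples called 2 higher, Ttk and Bub1b (0.477% of all genes), and edgeR on the 12 libraries as if they were separate samples called 19 (2.23%), or 18 (2.11%) with a block for the library digit. At an unadjusted p under 0.05, 26 mitosis genes were higher (4.28% of all genes) and 0 were lower (5.2%). In 33 of the 60, every Ythdc1Δ/Δ sample lay above every Ythdc1+/+ sample (7.75% of all genes), and the opposite held for 0 (8.59%). The study's cut of a 2-fold change with p at most 0.05 was met by 0 mitosis genes (0.85% of all genes, higher). All 60 genes are read from the same samples and can vary together, so such counts are not independent evidence. In bulk RNA, more dividing cells and more of these transcripts per cell cannot be told apart.

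**Figure D1:**
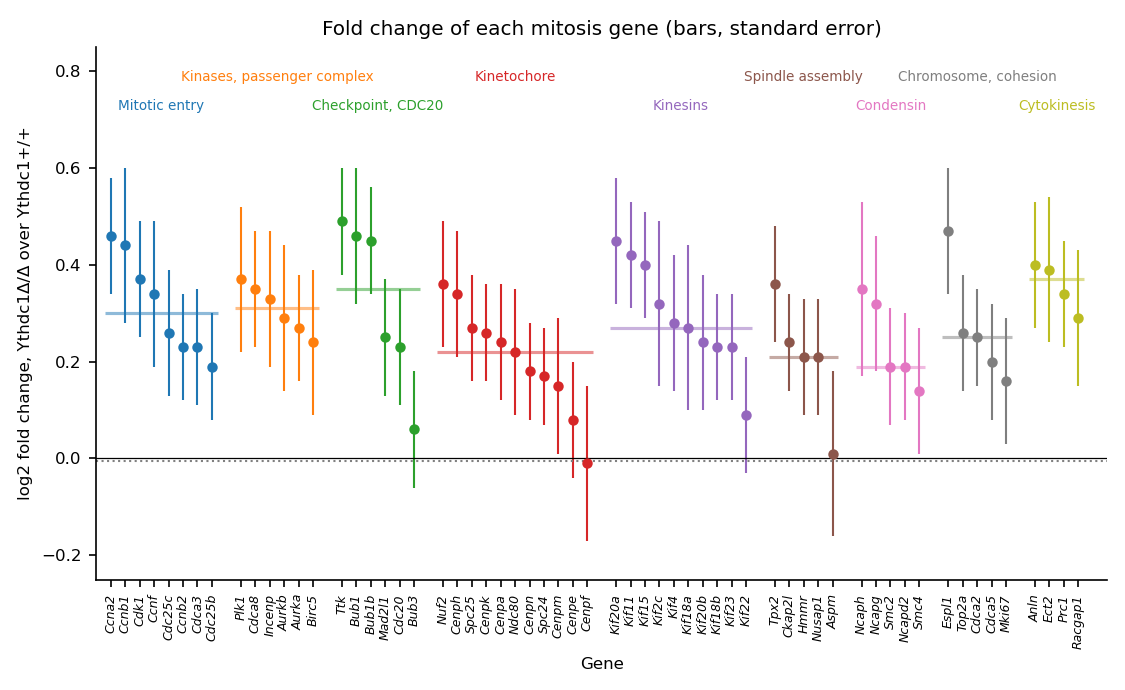
Points give the log2 fold change of each of the 60 mitosis genes, Ythdc1Δ/Δ over Ythdc1+/+, from edgeR on 3 against 3 summed samples, and bars give its standard error. Horizontal lines mark subgroup medians, which lie between 0.19 (condensin) and 0.37 (cytokinesis), and the dotted line is the median of all genes tested, -0.0062. Cenpf alone is below 0.

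Among genes of mitotic entry the median log2 fold change was 0.30, and 6 of the 8 did not overlap between genotypes (7.75% of all genes, higher). Ccna2, the cyclin of S phase and early mitosis, had 176.5, 158.1 and 165.7 CPM (counts scaled to the total of the sample, with TMM) in KO176, KO177 and KO209, against 109.1, 131.3 and 123.3 CPM in WT178, WT180 and WT207. All 3 Ythdc1Δ/Δ samples were thus above all Ythdc1+/+ samples, with means of 167 ± 9.24 and 121 ± 11.2 CPM (SD, n = 3 each) and a log2 fold change of 0.46 (standard error 0.12, edgeR adjusted p = 0.27). Exons of Exosc9 covered 12.5% of the exons of Ccna2, and reads that overlap both genes were not assigned to either. Cdk1, the kinase that drives entry, had 229, 205 and 198 CPM in the Ythdc1Δ/Δ samples, against 156, 183 and 152 CPM in the Ythdc1+/+ samples, a log2 fold change of 0.37 (standard error 0.12, edgeR adjusted p = 0.367).

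Ccnb1, its main mitotic cyclin, spread more within a genotype. It had 306.1, 237.1 and 210.5 CPM in Ythdc1Δ/Δ samples, against 205.5, 188.9 and 160.1 CPM in Ythdc1+/+ samples, so KO209 lay just above WT178. Its log2 fold change of 0.44 had a standard error of 0.16, beside 0.23 (standard error 0.11) for Ccnb2, the other B-type cyclin, which was at 235 ± 6.41 CPM in Ythdc1Δ/Δ and 201 ± 16.9 CPM in Ythdc1+/+ HSCs (SD, n = 3 each). The phosphatases that activate CDK1 had smaller differences, 0.19 for Cdc25b and 0.26 for Cdc25c on the log2 scale, both without overlap between genotypes. Ccnf, an F-box cyclin, and Cdca3, a trigger of WEE1 degradation, had log2 fold changes of 0.34 and 0.23 with samples that overlapped.

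Mitotic kinases and the passenger complex, which corrects faulty attachments, reached a median of 0.31 on the log2 scale. Only 2 of these 6 genes separated the genotypes (7.75% of all genes, higher). Plk1, the kinase of spindle maturation and cytokinesis, had 186, 144 and 131 CPM in KO176, KO177 and KO209, against 120, 133 and 104 CPM in WT178, WT180 and WT207. KO176 was far above the rest and KO209 was below WT180. Birc5, which encodes survivin, had 255, 219 and 179 CPM in Ythdc1Δ/Δ, against 187, 199 and 166 CPM in Ythdc1+/+ samples, so KO209 was below both WT178 and WT180. Aurkb, the catalytic subunit, and Incenp, its scaffold, likewise overlapped, at log2 fold changes of 0.29 and 0.33. Cdca8 (borealin) and Aurka, the kinase of the spindle poles, did not overlap. Cdca8 averaged 240 ± 17.9 CPM in Ythdc1Δ/Δ and 188 ± 16.1 CPM in Ythdc1+/+ HSCs, and Aurka 127 ± 10.3 CPM and 105 ± 7.78 CPM in the same order (SD, n = 3 each). The median deviation of these 6 genes from the mean of the 6 samples was 0.38 in KO176, 0.12 in KO177 and -0.06 in KO209 on the log2 scale, so KO209 was within the Ythdc1+/+ samples, which lay at -0.12, -0.03 and -0.27. Without KO176 the median log2 fold change of these genes was 0.20.

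Genes of the spindle checkpoint reached a median of 0.35 and held the largest single difference. Ttk, which encodes the kinase MPS1 at the head of the checkpoint, had 48.9, 42.2 and 43.7 CPM in Ythdc1Δ/Δ samples, against 30.8, 31.7 and 33.3 CPM in Ythdc1+/+ samples, 1.41-fold (log2 fold change 0.49, standard error 0.11, edgeR adjusted p = 0.194, the lowest of the 60). In its 12 libraries it was at 32.2 to 51.7 CPM in Ythdc1Δ/Δ and 30.4 to 36.1 CPM in Ythdc1+/+, and the 1 Ythdc1Δ/Δ library inside the Ythdc1+/+ range was the second of KO177. Bub1b, which encodes BUBR1 of the mitotic checkpoint complex, had 128, 124 and 139 CPM in Ythdc1Δ/Δ samples, against 90.02, 104 and 92.03 CPM in Ythdc1+/+ samples (log2 fold change 0.45, standard error 0.11, edgeR adjusted p = 0.266). These summed values are clear of each other by more than the spread within each genotype. Single libraries of Bub1b overlapped, at 100 to 148 CPM in Ythdc1Δ/Δ and 86.5 to 109 CPM in Ythdc1+/+. The 2 libraries of KO177 had 146 and 100 CPM, the second inside the Ythdc1+/+ range.

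Bub1, the kinase that brings BUBR1 to kinetochores, had 37.6, 30.3 and 42.3 CPM in Ythdc1Δ/Δ samples, against 24.5, 28.4 and 27.0 CPM in Ythdc1+/+ samples, with a log2 fold change of 0.46 and a standard error of 0.14. Mad2l1, which encodes the MAD2 inhibitor of CDC20, averaged 168 ± 13.2 CPM in Ythdc1Δ/Δ and 141 ± 12.2 CPM in Ythdc1+/+ HSCs (SD, n = 3 each), and Cdc20 itself 285 ± 5.57 CPM and 244 ± 23.1 CPM in the same order. Both were without overlap. Bub3, the WD-repeat partner of BUB1 and BUBR1, stood apart from its partners. It had 372, 392 and 358 CPM in Ythdc1Δ/Δ samples, against 392, 346 and 340 CPM in Ythdc1+/+ samples, and a log2 fold change of 0.06 (standard error 0.12).

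**Figure D2:**
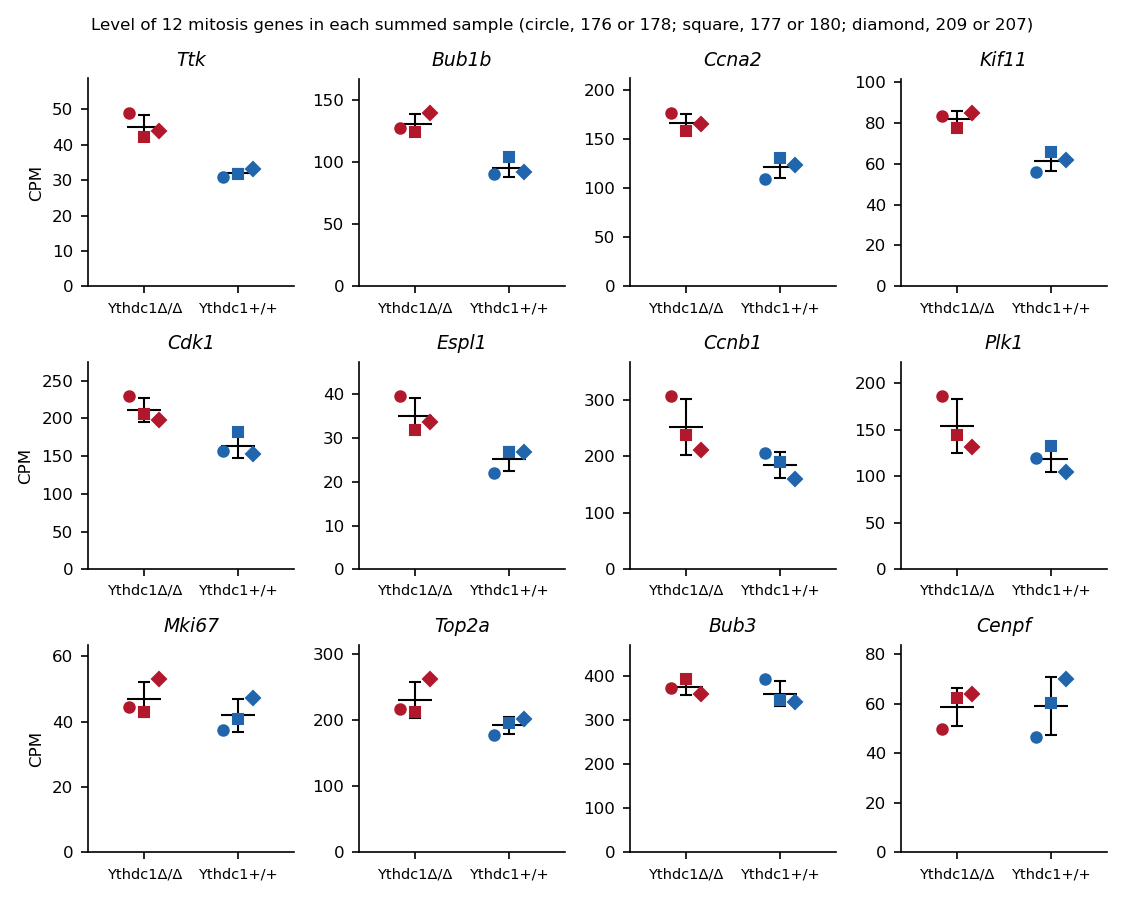
CPM of 12 mitosis genes in each summed sample, on axes that start at 0, with Ythdc1Δ/Δ samples (red) left of Ythdc1+/+ samples (blue); lines and bars give the mean and SD of 3 samples. Genotypes are separate for Ttk, Bub1b, Ccna2, Kif11, Cdk1, Espl1, Ccnb1 and Top2a, and overlap for Plk1, Mki67, Bub3 and Cenpf.

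Of 11 kinetochore genes, 10 were above 0 on the log2 scale, with a median of 0.22 (0.15 without KO176), and 6 did not overlap (7.75% of all genes, higher). The 4 subunits of the NDC80 complex, which grips the microtubule, had log2 fold changes of 0.36 (Nuf2), 0.27 (Spc25), 0.22 (Ndc80) and 0.17 (Spc24). Nuf2 had 97.4, 88.9 and 77.3 CPM in Ythdc1Δ/Δ samples, against 76.7, 63.2 and 65.5 CPM in Ythdc1+/+ samples, so the lowest Ythdc1Δ/Δ sample was only just above the highest Ythdc1+/+ sample. Genes of the inner kinetochore followed with 0.34 for Cenph, 0.26 for Cenpk, 0.18 for Cenpn and 0.15 for Cenpm, and Cenpa, the histone H3 variant of centromeres, with 0.24. Cenph averaged 56.3 ± 2.82 CPM in Ythdc1Δ/Δ and 44.6 ± 6.66 CPM in Ythdc1+/+ HSCs, and Cenpk 73.7 ± 4.7 CPM and 61.7 ± 1.85 CPM in the same order (SD, n = 3 each).

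The large proteins of the outer corona differed least. Cenpf had 49.9, 62.2 and 63.8 CPM in Ythdc1Δ/Δ samples, against 46.7, 60.3 and 69.9 CPM in Ythdc1+/+ samples, a log2 fold change of -0.01 (standard error 0.16, edgeR adjusted p = 0.993). Its sign turned without KO176 (0.10) and without WT207 (0.13). Cenpe, a kinetochore motor, had a log2 fold change of 0.08 that was -0.01 without WT178. The libraries spread widely, as Cenpf spanned 42.8 to 82.1 CPM over Ythdc1Δ/Δ libraries and 41.9 to 75.9 CPM over Ythdc1+/+ libraries. The second library of each sample was the higher for both genes. For Cenpf the first and second libraries had 44.0 and 82.1 CPM in KO177, and 47.5 and 73.5 CPM in WT180.

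The kinesins, motors that build and shape the spindle, reached a median of 0.27, and 0.17 without KO209. All 10 were above 0 and 5 were without overlap (7.75% of all genes, higher). Kif11, which slides spindle poles apart, had 83.1, 77.2 and 84.6 CPM in Ythdc1Δ/Δ samples, against 56.1, 65.6 and 61.7 CPM in Ythdc1+/+ samples (log2 fold change 0.42, standard error 0.11, edgeR adjusted p = 0.27). Kif15, which can take over that function, had 45.9, 43.5 and 46.9 CPM in Ythdc1Δ/Δ, against 30.6, 36.6 and 35.7 CPM in Ythdc1+/+ samples (log2 fold change 0.40, standard error 0.11). In both motors the summed samples of the genotypes were apart, but single libraries overlapped, at 69.2 to 93.0 CPM in Ythdc1Δ/Δ and 52.0 to 79.8 CPM in Ythdc1+/+ libraries for Kif11, and 41.1 to 50.3 CPM and 30.2 to 41.6 CPM in the same order for Kif15.

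Kif20a, a motor of the central spindle, differed by 0.45 on the log2 scale with a standard error of 0.13. Exons of Cdc23 cover 29.3% of its exon length, the only one of the 60 genes with an overlap over 20%, and without strand its counts hold only reads outside that stretch. Kif23, the motor of centralspindlin, and Kif18b, a regulator of astral microtubules, each had a log2 fold change of 0.23 without overlap. Kif2c (0.32), Kif4 (0.28), Kif18a (0.27) and Kif20b (0.24) overlapped between genotypes. Kif22, a chromokinesin, was at 210 ± 18.5 CPM in Ythdc1Δ/Δ and 198 ± 19.7 CPM in Ythdc1+/+ HSCs (SD, n = 3 each), a log2 fold change of 0.09.

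Among 5 genes of spindle assembly the median log2 fold change was 0.21. Tpx2, which activates AURKA on microtubules, had 148, 126 and 122 CPM in Ythdc1Δ/Δ samples, against 113, 97.6 and 98.5 CPM in Ythdc1+/+ samples (log2 fold change 0.36, standard error 0.12). Ckap2l, a spindle protein, averaged 118 ± 5.73 CPM in Ythdc1Δ/Δ and 99.8 ± 1.42 CPM in Ythdc1+/+ HSCs (SD, n = 3 each), also without overlap. Hmmr and Nusap1, both microtubule-binding, had 0.21 with overlap. Aspm, which encodes the spindle pole protein mutated in human microcephaly, had 11.1, 13.2 and 16.4 CPM in Ythdc1Δ/Δ samples, against 11.9, 13.9 and 14.6 CPM in Ythdc1+/+ samples. Its log2 fold change of 0.01 was -0.15 without KO209 and -0.07 without WT178.

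The 5 condensin genes, whose products fold chromatids, had the lowest subgroup median, 0.19, and only Ncapg was without overlap (7.75% of all genes, higher). The SMC cores Smc2 and Smc4 had log2 fold changes of 0.19 and 0.14, and the condensin I subunits Ncapd2, Ncapg and Ncaph 0.19, 0.32 and 0.35. Ncaph had 124, 94.1 and 78.3 CPM in Ythdc1Δ/Δ samples, against 91.8, 71.6 and 69.3 CPM in Ythdc1+/+ samples, and had the largest standard error of the 60 genes, 0.18. KO176 was highest, and KO209 was below WT178.

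Of the genes of chromosome structure and cohesion, Espl1 differed most. It had 39.6, 31.8 and 33.6 CPM in Ythdc1Δ/Δ samples, against 22.0, 26.7 and 26.8 CPM in Ythdc1+/+ samples, with no overlap (log2 fold change 0.47, standard error 0.13, edgeR adjusted p = 0.294). Top2a had 216.9, 212.5 and 262 CPM in Ythdc1Δ/Δ, against 177.7, 196.4 and 202.4 CPM in Ythdc1+/+ samples. Cdca5 (sororin), which protects cohesin, and Cdca2, a phosphatase subunit that binds chromatin, had log2 fold changes of 0.20 and 0.25 and were also without overlap.

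Mki67, whose protein Ki67 coats mitotic chromosomes and is the usual stain for cycling cells, differed less than most of the others. It had 44.6, 43.1 and 53.0 CPM in Ythdc1Δ/Δ samples, against 37.4, 41.0 and 47.3 CPM in Ythdc1+/+ samples, a log2 fold change of 0.16 (standard error 0.13, edgeR adjusted p = 0.728). The genotypes overlapped, with WT207 above KO176 and KO177. Transcript levels say nothing here of the protein.

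The 4 cytokinesis genes had a median of 0.37, which was the highest of the subgroups with all samples but 0.28 without KO209, below the kinases and passenger complex at 0.40. Anln, an actin-binding organizer of the cleavage furrow, had 34.2, 30.1 and 39.4 CPM in Ythdc1Δ/Δ samples, against 24.6, 26.6 and 27.4 CPM in Ythdc1+/+ samples, and Prc1, the bundler of the central spindle, had 82.7, 83.8 and 95.6 CPM, against 66.2, 68.2 and 72.2 CPM. Both were without overlap. Ect2, which activates RhoA at the furrow, had 53.4, 47.5 and 69.4 CPM in Ythdc1Δ/Δ samples, against 39.5, 48.9 and 41.7 CPM in Ythdc1+/+ samples, so that KO177 lay within the Ythdc1+/+ samples. Racgap1, the centralspindlin subunit that binds it, overlapped too, at a log2 fold change of 0.29.

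Levels between genes were compared per kilobase of exon. In Ythdc1Δ/Δ HSCs they spanned 1.17 CPM per kb for Aspm to 154 CPM per kb for Ccnb2, which was followed by Cdc20 at 153 CPM per kb. The same genes had 1.16, 131 and 130 CPM per kb in Ythdc1+/+ HSCs, so the highest and lowest members were the same in both genotypes. Counts behind these levels were 471 to 17832 per gene and sample.

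The samples of a genotype did not carry the difference equally. Summed over the 60 genes, KO176, KO177 and KO209 had 7586, 6962 and 6888 CPM, against 5976, 6166 and 5743 CPM in WT178, WT180 and WT207, so the sums did not overlap. The highest sample was KO176 for 30 genes, KO209 for 26 and KO177 for 2, where over all genes tested these samples were highest in 26.6%, 19.3% and 7.28%. The lowest was WT178 for 26 genes, WT207 for 25 and WT180 for 7. KO177 was nonetheless above every Ythdc1+/+ sample for 47 genes, beside 53 for KO176 and 44 for KO209. The shares of all genes tested were not computed for these counts or for those of the lowest sample, so they only describe the samples. Without WT207, 11 genes were higher at an unadjusted p under 0.05, in place of 26, and without KO176 there were 21. The share of all genes at this p was not computed with a sample left out.

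**Figure D3:**
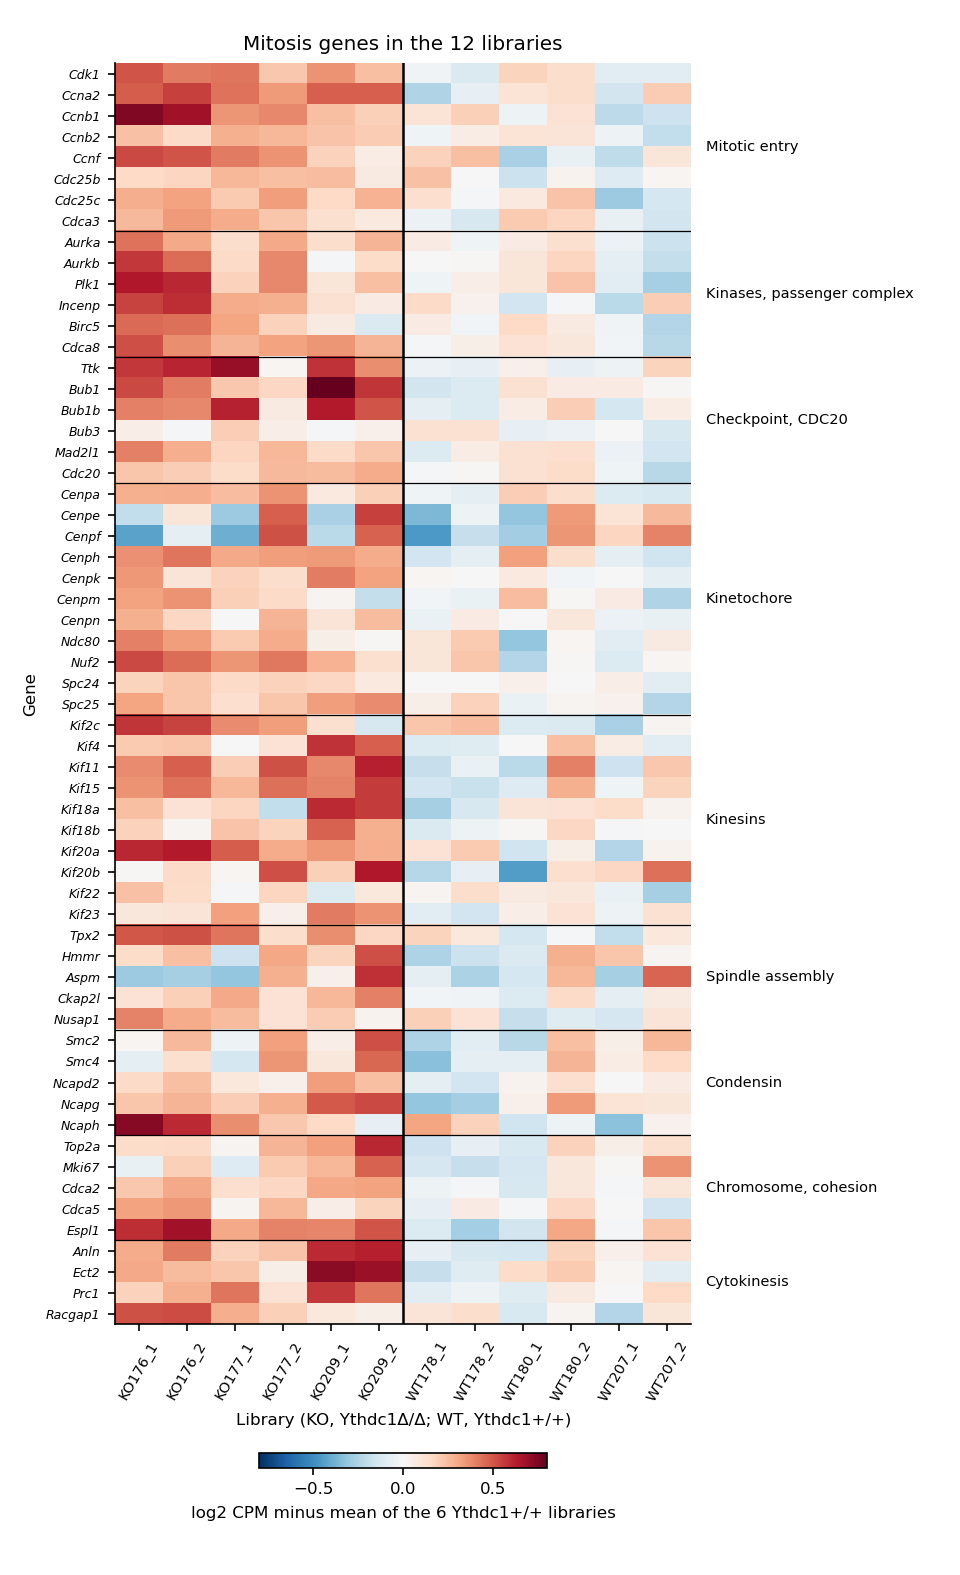
Each row is 1 mitosis gene and each column 1 of the 12 libraries, Ythdc1Δ/Δ on the left, with colour giving log2 CPM minus the mean of the 6 Ythdc1+/+ libraries. The left side is mostly red, and exceptions such as Cenpe, Cenpf and Aspm differ between the 2 libraries within several samples. Cenpe and Cenpf were higher in the second library of every sample.

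KO176 and KO209 were high for different genes. In KO176 the kinases and passenger complex (median deviation 0.38) and mitotic entry (0.26) were furthest above the mean of the 6 samples, and in KO209 cytokinesis (0.35) and kinesins (0.25) were. KO209 was at 0.05 for mitotic entry, and KO176 at 0.15 for cytokinesis. The 2 libraries of a sample differed by a median of 0.11 on the log2 scale (0.07 to 0.16 over samples), beside 0.17 between Ythdc1Δ/Δ samples and 0.16 between Ythdc1+/+ samples. Some genes differed more and in a fixed direction. Cenpe, Cenpf, Smc2, Smc4 and Kif20b were among those higher in the second library of every sample.

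**Figure D4:**
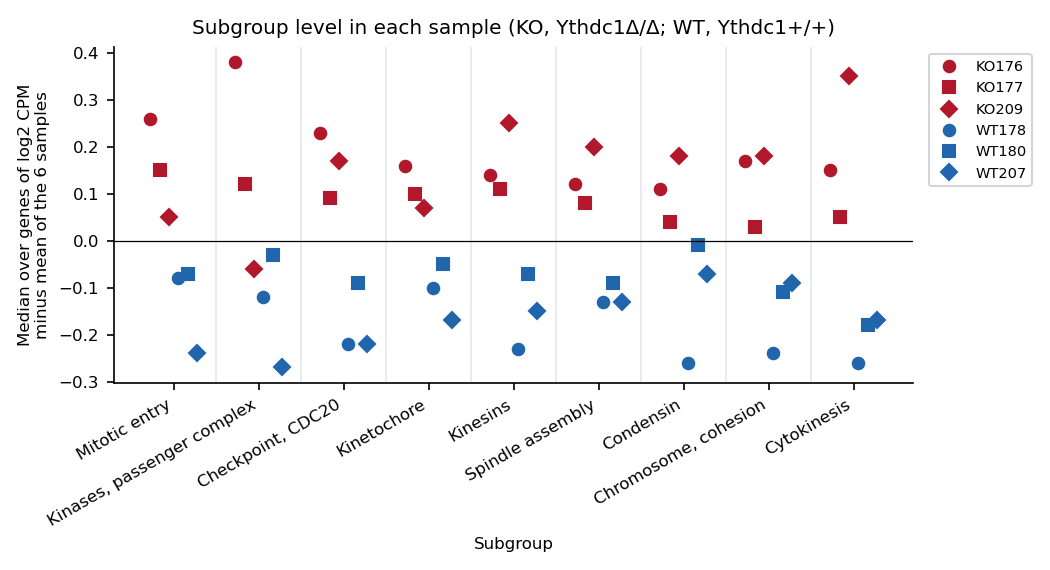
For each subgroup and summed sample, points give the median over its genes of log2 CPM minus the mean of the 6 samples, with the 3 Ythdc1Δ/Δ samples (red) left of the 3 Ythdc1+/+ samples (blue). Every red point is above every blue one in 8 of the 9 subgroups, and for the kinases and passenger complex KO209 (-0.06) lies below WT180 (-0.03).

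This pattern went with exon length, and did so in both genotypes. The sample numbers fall into a lower range (KO176, KO177, WT178 and WT180) and a higher range (KO209 and WT207), and the labels do not say what a range stands for. Over the 60 genes, Spearman's correlation with exon length was 0.44 for KO209 minus the mean of KO176 and KO177, and 0.63 for WT207 minus the mean of WT178 and WT180, beside 0.18 for each over all genes tested. For the 30 genes over the median exon length of 5.06 kb, the median difference was 0.13 for KO209 and 0.07 for WT207, and for the 30 others it was -0.13 and -0.16. The points of such a correlation share their libraries, so it is a description only.

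The fold change between genotypes was not related to exon length in this way. Its correlation with length was 0.01, and its median was 0.26 in the longer and 0.27 in the shorter genes. Cenpf and Aspm, with 15.4 and 11.6 kb among the longest, had the values nearest 0. Within the lower range, 59 of 60 genes were higher in Ythdc1Δ/Δ with a median log2 difference of 0.25, and within the higher range, with 1 sample a genotype and no test, 58 were higher with a median of 0.29.

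**Figure D5:**
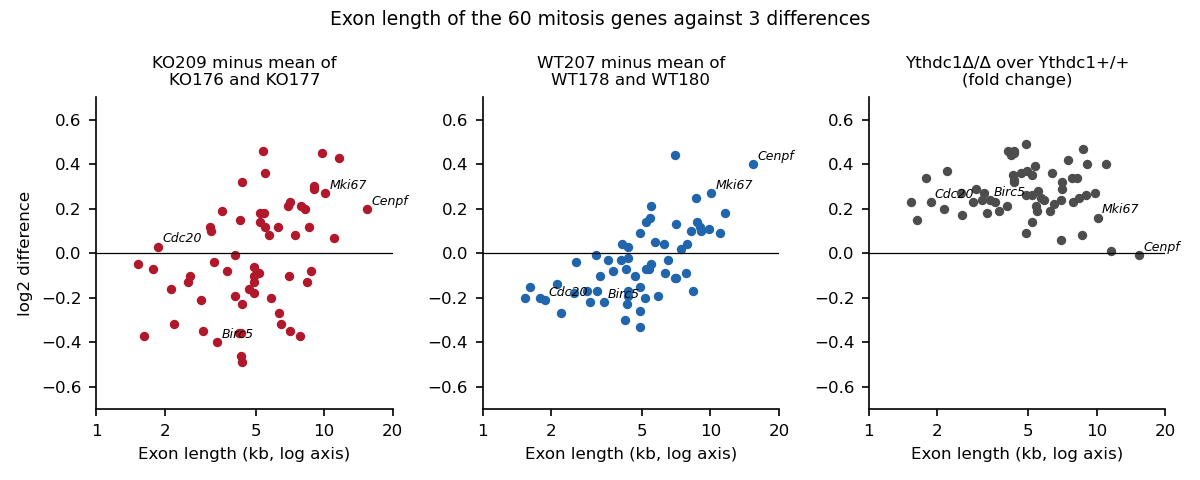
Exon length (kb, log axis) of the 60 mitosis genes against KO209 minus the mean of KO176 and KO177 (left), WT207 minus the mean of WT178 and WT180 (centre) and the log2 fold change between genotypes (right). Longer genes sit higher in the left and centre plots (Spearman 0.44 and 0.63), and no slope is seen on the right (0.01).

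Median fold changes were alike whether or not the promoter elements were found. The 35 genes with both a CHR and a CCAAT box in a window showed a median of 0.24 on the log2 scale, the 10 genes with 1 of the 2 had 0.29, and the 6 genes with neither, among them Nuf2, Birc5 and Mad2l1, had 0.26. At an unadjusted p under 0.05, 15 of the 35, 5 of the 10 and 1 of the 6 were higher (4.28% of all genes). These groups differ in size and were not tested against each other.

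Further lists of the same machinery had lower medians, which were not tested against that of the 60 genes, and some of their genes had larger differences than any of the 60. Of 33 further kinetochore genes 28 were above 0 on the log2 scale, with a median of 0.15, and 9 were higher at an unadjusted p under 0.05. Over all genes tested, 48.9% were above 0, and 4.28% were higher and 5.2% lower at that p. Cenpi (0.52) and Ska1 (0.44) differed most by p and neither passed the adjusted test. Of 39 further spindle and mitotic kinase genes 35 were above 0, with a median of 0.18 and 9 at an unadjusted p under 0.05, led by Depdc1a (0.61) and Nek2 (0.41). Subunits of the anaphase-promoting complex, the ubiquitin ligase that CDC20 activates, had a median of 0.07 (-0.04 without KO176), with 0 of 15 at an unadjusted p under 0.05, and Anapc1 (0.31) and Cdc27 (0.24) had the lowest p. Condensin II and cohesin had a median of 0.09 (0.15 without KO177 or without WT207), with 1 of 15 at that level, and the lowest p in Ncapg2 (0.43) and Rad21 (0.32).

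Of 16 genes for the factors that drive or repress G2 and M transcription, 11 were above 0 and 5 below, with a median of 0.19. An unadjusted p under 0.05 was seen for 4 above and 1 below 0 (4.28% and 5.2% of all genes). Foxm1, an activator of this phase, had 34.9, 25.4 and 29.0 CPM in Ythdc1Δ/Δ samples, against 19.9, 24.0 and 23.9 CPM in Ythdc1+/+ samples, a log2 fold change of 0.39 (standard error 0.15, edgeR adjusted p = 0.427). Tfdp1, the partner of E2F proteins, had a log2 fold change of 0.47, and the median of the list was 0.07 without KO176. All 19 genes of G1/S and licensing were above 0, with a median of 0.25 (0.14 without KO176) and 5 at an unadjusted p under 0.05, led by Ccne2 and E2f2 (0.48 each), and their summed level was 6502, 5446 and 4822 CPM in Ythdc1Δ/Δ, against 5076, 4512 and 4447 CPM in Ythdc1+/+ samples, which overlap. Of 5 tested CDK inhibitors 4 were below 0, with a median of -0.15 (-0.09 without KO176 and -0.08 without WT207) and 0 at an unadjusted p under 0.05, and Cdkn2d (-0.15) and Cdkn1c (-0.50) had the lowest p. Cdkn1c (p57), a gene of quiescent HSCs, had 3.62, 5.36 and 10.1 CPM in Ythdc1Δ/Δ, against 8.26, 7.80 and 11.1 CPM in Ythdc1+/+ samples, with overlap.

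The targeted gene and the markers of the sort bear on how these values are read. Ythdc1 had 56.8, 69.6 and 69.6 CPM in Ythdc1Δ/Δ samples, against 76.0, 72.6 and 92.5 CPM in Ythdc1+/+ samples, and counts over the whole gene do not show whether the deleted exons were read. The 16 HSC and progenitor markers were all detected, among them Kit (161, 199 and 260 CPM in Ythdc1Δ/Δ, against 245, 239 and 265 CPM in Ythdc1+/+ samples) and Slamf1 (means of 7.40 and 9.32 CPM in Ythdc1Δ/Δ and Ythdc1+/+), and so were Flt3 (428 and 363 CPM) and Cd48 (363 and 297 CPM), which mark multipotent progenitors beyond long-term HSCs. Of these markers 12 were below 0, with a median of -0.33 on the log2 scale (-0.15 without KO176, -0.50 without KO209), and 5 at an unadjusted p under 0.05, such as Tek (-0.79) and Hoxb5 (-1.18), genes of long-term HSCs.

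Several lists of markers of more mature cells were also above 0, although the methods describe enrichment with CD117 beads before sorting and antibodies to CD11b, Gr1, CD4, CD8, Ter119 and B220 to define lineage cells. All 20 granulocyte markers were above 0, with a median of 0.44 (0.22 without KO176, 0.24 without WT180). At an unadjusted p under 0.05, 4 were higher (4.28% of all genes), with the lowest p in Ltb4r1 (0.44) and Fcnb (0.58). Their summed level was 13479.5 to 25192.9 CPM in Ythdc1Δ/Δ, highest in KO176, and 11352.4 to 14616.3 CPM in Ythdc1+/+ samples.

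For B lineage markers 15 of 16 were above 0 (median 0.78), 11 at an unadjusted p under 0.05 (4.28% of all genes, higher). Their sums were 2791 to 6445 CPM in Ythdc1Δ/Δ and 1081 to 1675 CPM in Ythdc1+/+ samples. Pou2af1 (1.63) was called by edgeR, and Cd79a was next, at 14.7 ± 2.18 CPM in Ythdc1Δ/Δ and 7.36 ± 0.637 CPM in Ythdc1+/+ HSCs (SD, n = 3 each). For macrophage markers 8 of 11 were above 0 (median 0.55, and 0.34 without KO176), 4 at that p, led by C1qb (0.84) and Vcam1 (0.72), with sums of 121 to 231 CPM in Ythdc1Δ/Δ and 107 to 143 CPM in Ythdc1+/+ samples. For stroma and endothelium 11 of 13 were above 0 (median 0.84, and 0.54 without WT178), 6 at that p, among them Lepr, Adipoq and Sparc, which edgeR called. Pecam1 (0.17), Emcn (0.11) and Kdr (-0.22), genes of endothelium, were not at that p, nor was Pdgfrb (-0.21), and Cdh5 was not tested. The sums were 196 to 206 CPM in Ythdc1Δ/Δ and 161 to 188 CPM in Ythdc1+/+ samples. Pecam1 (means of 91.4 and 81.1 CPM) and Pdgfrb (51.8 and 60.1 CPM) were their largest parts, so the sums do not measure Lepr or Adipoq.

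Other marker lists did not share this direction or did so less steadily. Erythroid markers were above 0 for 11 of 15, with sums of 868 to 1457 CPM in Ythdc1Δ/Δ and 1552 to 1774 CPM in Ythdc1+/+ samples. An unadjusted p under 0.05 was seen for 2 of them above and 1 below 0 (4.28% and 5.2% of all genes). Tfrc (0.61) and Car2 (-0.52) had the lowest p of these markers. Their median of 0.28 ran between -0.06 without KO209 and 0.58 without WT207. T and NK markers were above 0 for 4 of 8 with 0 at such a p (lowest in Il7r, 0.53, and Cd4, 0.36), at 531 to 759 CPM in Ythdc1Δ/Δ and 640 to 790 CPM in Ythdc1+/+ samples. Megakaryocyte markers were below 0 for 8 of 8 (median -0.62), 4 at that p, led by Vwf (-0.89) and Gp9 (-0.53), at 207.5 to 359.4 CPM in Ythdc1Δ/Δ and 341.1 to 496.8 CPM in Ythdc1+/+ samples. No list had a gene at 0 in every sample. Whether such cells were in the sort, and any part of them in the levels of the mitosis genes, was not tested.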

How the data were processed

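Per the file headers and the submitters' processing notes, the authors used featureCounts 2.0.1 to count fragments on GENCODE vM23 genes of mm10, without strand. The deposited values are raw counts. Reads on exons of 2 genes were left unassigned. The study's methods name Hisat2 and Stringtie, and the FPKM values made with them were not used here. Libraries were made from polyadenylated RNA with a SMARTer low input cDNA kit and hold 20809936 to 24563170 counts each.

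The 2 libraries of a sample number were summed. Genes were tested with edgeR 4.0.16 in R 4.3.3 (robust quasi-likelihood fit, filterByExpr with minimum count 10 and minimum total 15, TMM) over 18234 genes with Benjamini-Hochberg adjustment, and all mitosis genes passed the filter. The steps were tested on simulated data. Members, subgroups and lists were chosen with earlier results of these data known. The genes described in detail were, per subgroup, the 3 with the lowest p, the 1 with the highest, and usual markers of cycling cells; other members are given more briefly. In the other lists the 2 genes of lowest p were named. Kit, Slamf1, Flt3, Cd48, Sparc, Pecam1, Emcn, Kdr, Cdh5 and Pdgfrb were named after their values were seen. Promoter windows were RefSeq entries of GRCm38.p6, searched for exact words on both strands; 9 genes had no entry used here.

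Alternatives were the 12 libraries as separate samples, also with a block for the library digit, voomLmFit (limma 3.58.1) with the sample number as random block, RLE and upper quartile scaling, DESeq2 1.42.0, edgeR's legacy option, no filter, a stricter filter, a range term (lower or higher sample numbers), the lower numbers alone (KO176, KO177, WT178 and WT180), the study's own cut, and each sample left out.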

Additional observations from a re-analysis of the deposited data

How the results depend on the processing

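Of the 18 alternatives, the study's own cut gives only a count of genes called, which was 0. Over the other 17, 57 to 60 of the mitosis genes had a log2 fold change above 0, the median ran between 0.23 and 0.30, and 0 were called lower. No gene was called higher at an adjusted p under 0.05 except with DESeq2, which called 2 (Ttk and Bub1b, against 0.477% of all genes), and with the 12 libraries as separate samples, which called 19 (2.23%), or 18 (2.11%) with the library digit as a replicate block. Treating libraries of 1 sample as replicates counts them as independent. At an unadjusted p under 0.05 these fits on 12 libraries gave 48 and, with the replicate block, 49 genes higher, the sample number as a random block gave 38, the range term gave 39, and leaving out each sample in turn gave 11 (without WT207) to 30. The share of all genes at this p was 4.28% in the reported test and was not computed for these fits. Whether the counts moved with that share was therefore not tested. With each sample left out in turn, 0 genes were called at an adjusted p under 0.05. Signs turned in 9 of 1020 pairs of gene and alternative, all in 3 genes. Cenpe ran between -0.01 (without WT178) and 0.16 (without WT207) with samples left out. Cenpf was at 0.00 with the range term, at 0.06 with the lower sample numbers alone, and at -0.15 (without WT178) to 0.13 (without WT207) with samples left out. Aspm was at -0.09 with the lower numbers alone, and at -0.15 (without KO209) to 0.14 (without KO176) with samples left out. All genes called numbered 1 to 751, against 25 in the reported test. Of 408 subgroup and list medians under the alternatives, 395 stayed within the spread between replicates. No paired analysis was possible because the genotypes share no sample number, and the library digit names libraries within a sample.

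Each gene had 471 or more counts in every sample. The comparison has 3 samples per genotype, and the median standard error over the 60 genes was 0.12 on the log2 scale, beside a median difference of 0.26. That standard error is of a single gene. The genes are read from the same samples and can vary together, so these values are no test of the group.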
